A study of Saccharomyces cerevisiae with 8 samples.

Results

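The genes described here encode the machinery of transcriptional silencing in *Saccharomyces cerevisiae*: the silent information regulators SIR1 (YKR101W), SIR2 (YDL042C), SIR3 (YLR442C) and SIR4 (YDR227W), the homologs of SIR2 named HST1 (YOL068C), HST2 (YPL015C), HST3 (YOR025W) and HST4 (YDR191W), the histone acetyltransferase gene SAS2 (YMR127C) and the histone methyltransferase gene DOT1 (YDR440W). They were taken by name from the 6600 features of the deposited count tables, and all 10 were found. All 10 also passed the filters on low counts.

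Total RNA was sequenced from cultures grown in rich medium (YPD) at 30 °C and harvested at 16 h, in late log phase. The 8 libraries comprised 2 of H4K16Q, in which lysine 16 of histone H4 is replaced by glutamine, 2 of H4H18A, in which histidine 18 of H4 is replaced by alanine, 2 of the WT strain labelled H4 (WT H4), 1 of H3E50A, in which glutamate 50 of H3 is replaced by alanine, and 1 of the WT strain labelled H3 (WT H3). All strains derive from the parental haploid JDY86 (*MATa*, *can1::MFA1pr-HIS3*, *met15Δ0*, *ura3Δ0*, *trp1Δ63*, *leu2Δ0*, *his3Δ200* and a deletion printed as *K2Δ0*), so the WT controls carry these alleles too. In the genotype given in the methods of the study, both native H3-H4 gene pairs are replaced, *hht1-hhf1* by *NatMX4* and *hht2-hhf2* by a synthetic pair next to *URA3*, from which the mutant or WT histone is made. The count tables nevertheless held counts on *HHT1* (32 to 4609) and *HHF1* (12 to 1286) in every library, and on *HHT2* (20 to 2136), while *HHF2* had 0 to 4, and the copies from which these reads came cannot be told apart here. The labels of the H4 mutants give the strain as H3K16Q and H3H18A, whereas the design text of the series and the paper name histone H4. The replicates of a strain were prepared independently according to the methods of the study. In such bulk cultures, fewer cells of one kind and less RNA per cell cannot be told apart.

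By way of background, silent chromatin in budding yeast is built at the silent mating-type loci and the telomeres when DNA-bound factors recruit Sir1 or Sir4. Sir2, an NAD+-dependent deacetylase, removes the acetyl group from lysine 16 of H4, and Sir3 then binds the nucleosome through its BAH domain, which contacts the H4 tail at lysine 16 and histidine 18 and the surface around lysine 79 of H3. Sas2 acetylates H4 lysine 16 and Dot1 methylates H3 lysine 79, and both marks weaken the binding of Sir3 in euchromatin. The residues altered in H4K16Q and H4H18A are thus among those that Sir3 contacts, whereas H3E50 is not known to contact it, and the question put to the count tables was whether the transcripts of the enzymes and silencing proteins themselves differed from WT.

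The libraries held between 621770 and 10529401 counts, of which the 10 genes took 138 (H4H18A replicate 1) to 6261 (H4K16Q replicate 1). Levels are given as CPM, the count of a gene relative to the size of its library, with sizes set by the TMM method on the 5962 genes kept for all 8 libraries. A count of 3, the limit that a count of 0 allows, corresponds to 7.06 CPM in H4H18A replicate 1, to 3.44 CPM in H4H18A replicate 2 and to 1.95 CPM or less in the others, and these limits and all Poisson intervals cover counting error only. Of the strain markers, *LEU2* and *TRP1* had 0 counts in every library, and *LYS2* in all but WT H4 replicate 1, which had 3. *HIS3*, expressed in JDY86 from the promoter of the **a**-pheromone gene *MFA1*, had 239 and 102 counts in H4K16Q and 12 and 0 in H4H18A, against 318 and 247 in WT H4, and 331 in H3E50A against 233 in WT H3. *MFA2*, a second **a**-pheromone gene, had 235 and 9 counts in H4K16Q and 8 and 0 in H4H18A, against 336 and 170 in WT H4, and 1481 in H3E50A against 141 in WT H3. *MFA1* had 64 and 4 counts in H4K16Q and 1 and 0 in H4H18A, against 59 and 43 in WT H4, and 455 in H3E50A against 64 in WT H3. H4H18A replicate 2 was the only library with 0 counts on *HIS3*, *MFA1*, *MFA2* and the **a**1 gene of the silent cassette HMR (YCR097W). Its limit of 3.44 CPM lies above *MFA1* (0.595 CPM) and *MFA2* (1.34 CPM) in H4K16Q replicate 2, so only *HIS3* and **a**1 set it apart. In the other libraries *HIS3* had at least 15.2 CPM and **a**1 at least 5.21 CPM. Results for H4H18A that changed without this library are therefore also given without it.

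Reads of the 10 genes can be told apart from those of the rest of the genome. Each is a single coding exon that overlaps no other RefSeq gene, and the longest stretch of any of them that recurs exactly elsewhere in the R64 genome, on either strand, was 21 bases (SIR4). SIR2 and HST1 are a pair of duplicated genes, and their closest ungapped stretch of 60 bases, within the part that encodes the deacetylase core, still differed at 8 positions. It lies at chrIV:377477-377536 in SIR2 and at chrXV:201073-201132 in HST1, both on the minus strand of R64, and is shown with the differing bases in capitals because it shows how far the counts of the pair are separable.
SIR2: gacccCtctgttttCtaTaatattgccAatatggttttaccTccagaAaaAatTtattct
HST1: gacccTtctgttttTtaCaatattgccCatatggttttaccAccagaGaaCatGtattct
The strand setting of the counting is not given in the sources used here, so reads from a gene and from its antisense strand cannot be told apart. HST1 ends 70 bp from NUF2, a kinetochore gene on the opposite strand, which was the shortest gap among the 10.

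Per length of coding sequence, the genes fell into a wide order. HST2, which encodes the mainly cytoplasmic member of the sirtuin family, had the highest level, with a mean of 123 CPM per kb over the 8 libraries. HST1 followed at 35.5 and HST3 at 32.7 CPM per kb. SIR4 stood at 17.9, SIR3 at 14.1, DOT1 at 13.2, SIR2 at 12.7, SAS2 at 12.6, HST4 at 11.5 and SIR1 at 10.5 CPM per kb. HST2 was the highest of the 10 in each library, whereas the order of the other genes changed from library to library and the ranges of neighbours among them overlapped. HST3, for example, stood at 46.1 and HST1 at 22.2 CPM per kb in H4K16Q replicate 2. The share of HST2 in the summed CPM per kb of the 10 genes lay between 39.5% and 52.1% in the H4 mutant libraries, against 32.8% and 38.9% in WT H4, and was 46.6% in H3E50A against 47% in WT H3. The core subunits were low by comparison, SIR2 with 1.27% to 6.24% and SIR3 with 3.73% to 6.59% of that sum.

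**Figure D1:**
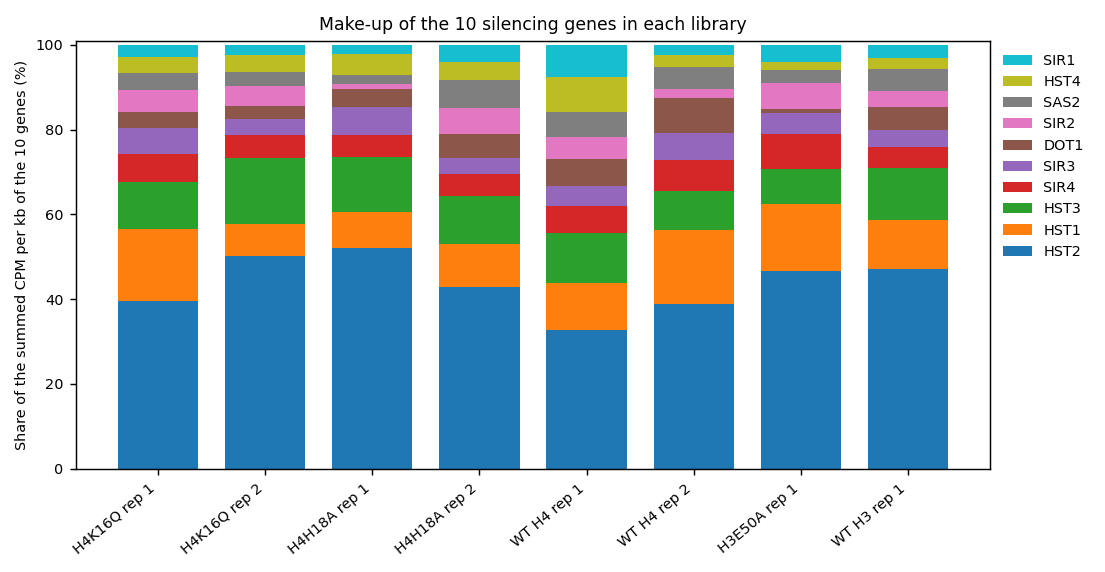
Share of each gene (%) in the summed CPM per kb of coding sequence of the 10 silencing genes, with 1 bar per library. HST2 takes between 32.8% and 52.1% of every bar, and DOT1 is smallest in H3E50A, at 0.958%.

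DOT1 was the only member whose 5 mutant libraries all lay below all 3 WT libraries. Dot1 is the sole methyltransferase for lysine 79 of H3 in yeast, a mark on the nucleosome face that Sir3 contacts. DOT1 had 18.9 and 16.7 CPM in H4K16Q and 16.5 and 22.9 CPM in H4H18A, against 38.4 and 37.7 CPM in WT H4. In H3E50A it had 5.5 CPM, from 24 counts, against 28.7 CPM in WT H3, from 44 counts. The mutant libraries thus spanned 5.5 to 22.9 CPM and the WT libraries 28.7 to 38.4 CPM, and the level in H3E50A was the lowest of all. This arrangement was looked for after the data were seen. Among the 5962 genes, 188 (3.15%) showed it and 60 (1.01%) the opposite one, with every mutant library above every WT library. The separation was also found with RLE factors, with total counts only and with the 22 features above 1% of any library removed, these alternatives having been chosen after the data were seen. Leaving out a library cannot undo such a separation, so the results without single libraries are no check of it. SAS2 showed it too without H4H18A replicate 2, which left fewer libraries to separate.

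The difference of DOT1 did not pass the test in either H4 mutant. In edgeR's quasi-likelihood model the log2 fold change of H4K16Q over WT H4 was -1.11 ± 0.57 (SE), with a 95% interval of -2.39 to 0.17 and an adjusted p of 0.997. For H4H18A it was -0.93 ± 0.603 (SE), with an interval of -2.28 to 0.42 and an adjusted p of 0.999. Leaving out each of the 6 libraries in turn gave between -1.09 and -0.94 for H4K16Q and between -1.14 and -0.73 for H4H18A, where the value was -1.14 without H4H18A replicate 2. In H3E50A the log2 ratio to WT H3 was -2.29, at the 5.87th percentile of all genes, with a counting interval of -3.16 to -1.63 and no replicate. Set against SIR3 in the same library and per length, which needs no scaling between libraries, DOT1 stood at 0.614 and 0.863 of SIR3 in H4K16Q and 0.653 and 1.4 in H4H18A, against 1.4 and 1.35 in WT H4. The same ratio was 0.19 in H3E50A, with a counting interval of 0.119 to 0.291, against 1.37 in WT H3, with an interval of 0.898 to 2.08. Set against SAS2 instead, DOT1 stood at 0.909 and 1.02 in H4K16Q and at 2.04 and 0.831 in H4H18A. The WT H4 values were 1.08 and 1.61, so those of H4H18A lay on either side of them. The value of 2.04, in H4H18A replicate 1, had a counting interval of 0.387 to 20.1. In H3E50A the ratio to SAS2 was 0.317, against 1.07 in WT H3.

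**Figure D2:**
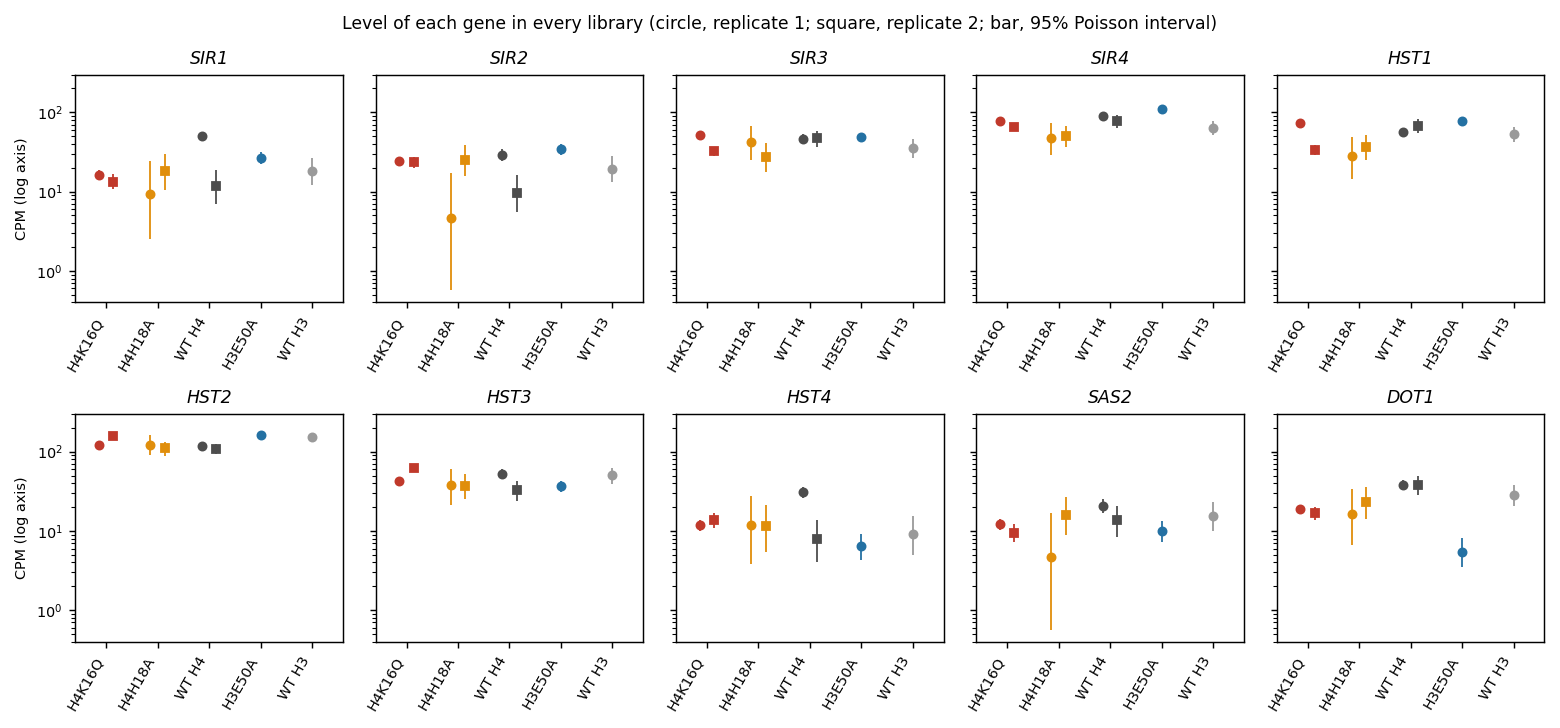
Level of each of the 10 genes in CPM on a log axis, with 1 point per library (circles, replicate 1; squares, replicate 2) and its 95% Poisson interval, for H4K16Q, H4H18A, WT H4, H3E50A and WT H3. DOT1 is the gene whose mutant points, at 5.5 to 22.9 CPM, all sit below its WT points, at 28.7 to 38.4 CPM, while the replicates of SIR1, SIR2 and HST4 in WT H4 lie far apart.

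DOT1 lies on chromosome IV (1342493 to 1344241, plus strand, R64), with its nearest neighbour APT2 275 bp away on the opposite strand. Its upstream region was examined with those of the other members for 6 sequence motifs, in a window from 300 to 51 bases before the start codon and on both strands: the Rap1 and Abf1 consensus sites by name, the Reb1 core (TTACCC), the MCB element of G1/S-regulated genes (ACGCGT), the SCB element (CGCGAAA) and the stress response element (CCCCT). No motif overlapped another in these windows. DOT1 was the only member with an MCB, which 197 of 5897 promoters (3.34%) hold. The chaperone gene ASF1 and the chromatin assembly gene RLF2, partners of histone deposition, each had a pair of MCB elements. The 3 windows are printed because each holds an MCB and each of these genes had its lowest level of the 8 libraries in H3E50A. ASF1 was nearly as low in H4K16Q replicate 1, at 9.62 CPM against 9.4 CPM. The windows lie at chrIV:1342193-1342442 for DOT1, chrX:195987-196236 for ASF1 and chrXVI:594176-594425 for RLF2, all on the plus strand of R64, and the capitals mark each MCB.
DOT1: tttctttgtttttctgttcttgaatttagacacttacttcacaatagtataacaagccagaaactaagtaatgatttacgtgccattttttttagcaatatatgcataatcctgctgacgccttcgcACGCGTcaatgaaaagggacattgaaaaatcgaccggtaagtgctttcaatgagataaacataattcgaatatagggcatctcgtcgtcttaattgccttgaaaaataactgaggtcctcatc
ASF1: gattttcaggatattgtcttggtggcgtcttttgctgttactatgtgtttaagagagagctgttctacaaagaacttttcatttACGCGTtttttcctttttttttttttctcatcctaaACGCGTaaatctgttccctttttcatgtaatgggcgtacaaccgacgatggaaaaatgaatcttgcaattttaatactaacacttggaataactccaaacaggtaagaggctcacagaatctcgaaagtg
RLF2: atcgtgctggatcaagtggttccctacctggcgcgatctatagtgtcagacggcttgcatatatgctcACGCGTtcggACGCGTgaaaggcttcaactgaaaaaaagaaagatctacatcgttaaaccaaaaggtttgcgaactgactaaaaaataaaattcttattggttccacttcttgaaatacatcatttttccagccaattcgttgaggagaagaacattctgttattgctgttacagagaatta
The MCB of DOT1 spans 173 to 168 bases before the start codon. RTT109, ORC1 and MMS22, genes of the partner lists, held none of the 6 motifs in this window. RTT109 also had its lowest level in H3E50A, at 1.83 CPM. Of the partner genes, only ASF1, RLF2, RTT109, ORC1, MMS22 and RFM1 were searched, all of which met the value rule for naming partners. A link between the MCB and the levels was not tested. The match is a description of the sequence, and binding was not measured here.

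In H4K16Q set against WT H4, the fitted level was lower for 7 members and higher for 3, with a median log2 fold change of -0.23, where 55.6% of the 5669 genes tested lay below 0 with a median of -0.10. Both H4K16Q libraries lay below both WT H4 libraries for DOT1 and SAS2, 2 of 10, as for 17.9% of all genes, and above them for HST2, 1 of 10, as for 12.8% of all genes. None of the 10 had an adjusted p under 0.05 in edgeR's quasi-likelihood test, and 0% of all genes did. At an unadjusted p under 0.05 there were 0 members and 211 genes (3.72%), and DESeq2 called 14 genes and no member. SAS2 and DOT1 stayed below, and HST2 stayed above, whichever single library was left out. Dropping H4K16Q replicate 1 gave 5 members below and 2 above. The members below rose to 6 when WT H4 replicate 2 was dropped. Those above rose to 3 when H4K16Q replicate 2 was dropped, and to 5 when this was done with WT H4 replicate 1. Such counts can only stay or rise when a library is dropped. As the share over all genes was not computed for these settings, the rises say nothing particular about the members.

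In H4H18A relative to WT H4, 9 of the 10 members had a log2 fold change below 0, with a median of -0.70, where 55.6% of all genes lay below 0 with a median of -0.09. Both H4H18A libraries lay below both WT H4 libraries for SIR3, SIR4, HST1 and DOT1, 4 of 10, as for 15.8% of all genes, and above them for 0 members, as for 10.3% of all genes. With edgeR 0 members and 0% of all genes had an adjusted p under 0.05, 0 members and 126 genes (2.22%) had an unadjusted p under 0.05, and DESeq2 called 0 genes. The count of 9 rested on WT H4 replicate 1, without which 5 of the 10 were lower, with a median of -0.08, and it was 9 without H4H18A replicate 2, when the values ran from -2.02 for SIR2 to 0.17 for HST2. The count of 4 became 7 without H4H18A replicate 2, 9 without WT H4 replicate 2 and 7 with total counts in place of TMM. Leaving out a library can only keep or raise this count, and with total counts the median over all genes was -0.56. The share over all genes was not computed in these settings, so the rises cannot be read as particular to the members. Both comparisons share the WT H4 libraries. The WT H4 replicates differed by at least 2-fold for 3 of the 10 genes and for 50.2% of all genes tested.

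Between the H4 mutants, 8 of the 10 members had a higher and 2 a lower fitted level in H4K16Q than in H4H18A, the median on the log2 scale being 0.27 for the members and 0.07 for all genes, of which 45% lay below 0. Both H4K16Q libraries lay above both H4H18A libraries for SIR4, HST3 and HST4, 3 of 10, as for 14.9% of all genes, and below them for 0 members, as for 11% of all genes. With edgeR 0% of genes passed an adjusted p of 0.05, and 88 genes (1.55%) and 0 members had an unadjusted p under 0.05, while DESeq2 called 6 genes and no member. The split of 8 to 2 changed with a single library, 4 members being lower in H4K16Q without H4H18A replicate 1 and 0 without H4H18A replicate 2. The count of 3 became 8 without H4H18A replicate 2, 5 without either H4H18A replicate 1 or H4K16Q replicate 2, and 6 with the features above 1% of a library removed. Leaving out a library can only keep or raise this count, and the share over all genes was not computed in these settings. Every member's interval of this difference included 0, the narrowest, that of SIR4, reaching from -0.70 to 1.78.

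**Figure D3:**
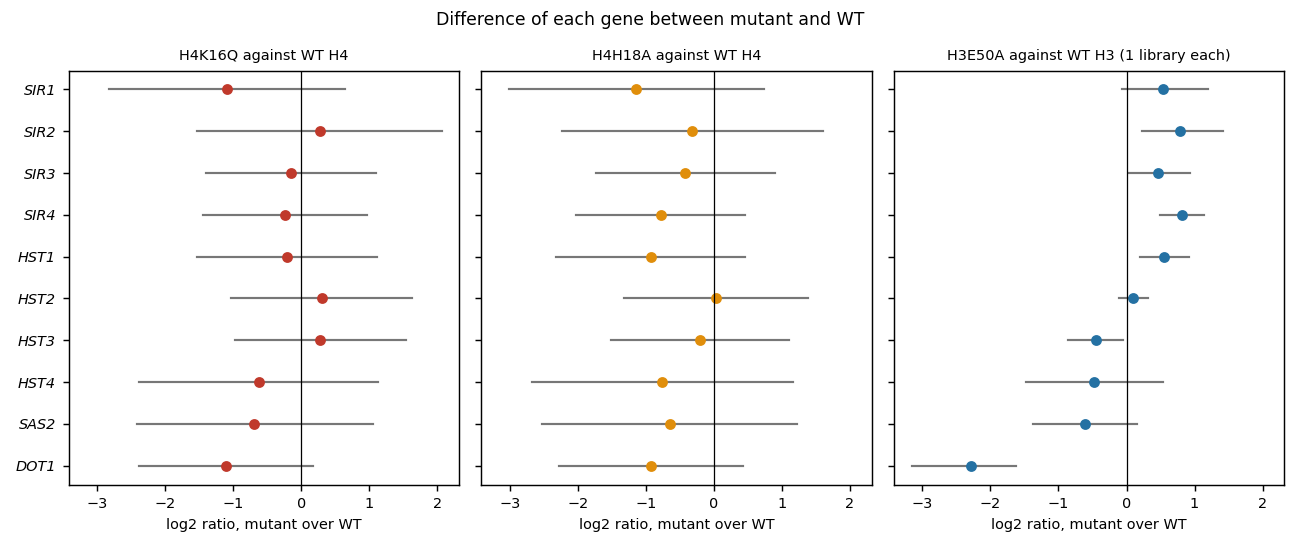
Log2 ratio of mutant over WT for each gene. In H4K16Q and H4H18A the points are edgeR estimates and the lines 95% intervals over 2 libraries a group, and every line crosses 0. In H3E50A the points are ratios of 1 library each and the lines are counting intervals only, with DOT1 at -2.29 and SIR4 at 0.81.

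In H3E50A relative to WT H3, with 1 library each and no test, 6 members had a higher and 4 a lower level, with a median log2 ratio of 0.28, where 49.7% of the 5962 genes were lower with a median of 0. DOT1 was the only member at least 2-fold lower, a size reached by 23.2% of all genes, and 0 members were at least 2-fold higher, against 22.1% of all genes. The SIR genes, HST1 and HST2 had higher levels in H3E50A, beyond counting error for SIR2, SIR3, SIR4 and HST1. HST3, HST4, SAS2 and DOT1 had lower ones, beyond counting error for HST3 and DOT1. The share of all genes beyond counting error was not computed. Among all genes, the ratios of SIR2, SIR3, SIR4 and HST1 lay between the 64.4th and the 73.6th percentile. That of HST3 lay at the 35.9th percentile and that of DOT1 at the 5.87th. With the features above 1% of a library removed, HST2 was at -0.07 and 5 members were lower. SIR3, whose counting interval began at 0.03, went from 0.46 to 0.29 in that setting. Against the mean of the 3 WT libraries in place of WT H3, 4 members were lower, and the log2 ratio was 0.20 for SIR3, 0.54 for SIR4, 0.41 for HST1, 0.39 for HST2 and -2.55 for DOT1.

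SIR1 encodes the protein that is recruited by the origin recognition complex at the silencers of the mating-type loci. It lies 24.3 kb from the right end of chromosome XI (640540 to 642504). SIR1 had 16.4 and 13.4 CPM in H4K16Q and 9.41 and 18.3 CPM in H4H18A, against 50.4 and 11.7 CPM in WT H4. Each H4K16Q value, and 1 of the H4H18A values, lay between the WT H4 replicates. Fitted over both replicates, SIR1 had a log2 fold change of -1.09 ± 0.773 (SE) in H4K16Q, with an adjusted p of 0.997, and of -1.14 ± 0.832 in H4H18A, with an adjusted p of 0.999, both from edgeR. Without WT H4 replicate 1 these became 0.34 and 0.31, so that the sign rested on that library, and without H4H18A replicate 2 the value in H4H18A was -1.69. The level of SIR1 was 26.6 CPM in H3E50A and 18.2 CPM in WT H3, which is a log2 ratio of 0.53 (counting interval -0.06 to 1.2).

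SIR2, the catalytic subunit, which also silences the ribosomal DNA as part of the RENT complex, had 24.6 and 23.6 CPM in H4K16Q. In H4H18A it had 4.71 CPM from 2 counts and 25.2 CPM from 22 counts, against 29.3 and 9.75 CPM in WT H4. The value of H4H18A replicate 1 lay under the limit of 3 counts, with a Poisson interval of 0.57 to 17 CPM. The groups overlapped in both comparisons, with log2 fold changes of 0.27 ± 0.801 (SE) in H4K16Q (interval -1.53 to 2.06) and -0.32 ± 0.856 in H4H18A (interval -2.24 to 1.6). Without H4H18A replicate 2 the second value was -2.02, and without H4H18A replicate 1 it was 0.34. In H3E50A SIR2 had 34.2 CPM, the highest of the 8 libraries, and WT H3 had 19.5 CPM, for a log2 ratio of 0.79 (counting interval 0.23 to 1.42). SIR2 spread 7.26-fold between its lowest and highest library, the widest range of the 10 genes, which rests on the library with 2 counts.

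SIR3, whose protein binds the nucleosome and spreads along it, had 51.7 and 32.4 CPM in H4K16Q and 42.4 and 27.5 CPM in H4H18A, against 46.1 and 46.8 CPM in WT H4. The WT H4 replicates were nearly equal, and both H4H18A values lay below them, although the nearer one, 42.4 CPM from 18 counts, had a Poisson interval of 25.1 to 66.9 CPM. The log2 fold change was -0.15 ± 0.56 (SE) in H4K16Q and -0.43 ± 0.587 in H4H18A, which was -0.07 without H4H18A replicate 2. SIR3 stood at 48.6 CPM in H3E50A and at 35.2 CPM in WT H3, for a log2 ratio of 0.46 (counting interval 0.03 to 0.93). The SIR3 transcript thus lay within 27.5 to 51.7 CPM in all 8 libraries, a 1.88-fold range.

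SIR4, the scaffold that holds Sir2 and Sir3 and binds Rap1 and yKu, had 77.9 and 65.3 CPM in H4K16Q and 47.1 and 50.5 CPM in H4H18A, against 90.3 and 77.3 CPM in WT H4. Both H4H18A values were below those of all the other libraries. For H4H18A the fit gave -0.78 ± 0.555 (SE) on the log2 scale, with an interval of -2.03 to 0.46 and an adjusted p of 0.999 from edgeR, and for H4K16Q it gave -0.24 ± 0.537. The value for H4H18A lay between -0.86 and -0.65 when any 1 library was left out. In H3E50A SIR4 had 111 CPM, its highest level, and WT H3 had 63.2 CPM, for a log2 ratio of 0.81 (counting interval 0.49 to 1.14). Per length, the ratio of SIR3 to SIR4 within a library lay between 0.609 in H3E50A and 1.25 in H4H18A replicate 1, with intervals that overlap for most pairs of libraries.

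Among the homologs of SIR2, HST1 encodes the deacetylase that the repressor Sum1 brings to middle sporulation genes, with Rfm1 as the link. HST1 had 74.2 and 33.6 CPM in H4K16Q and 28.2 and 36.7 CPM in H4H18A, against 56.9 and 67.6 CPM in WT H4. Both H4H18A values lay below both WT H4 values, whereas the H4K16Q replicates lay on either side of them. Its log2 fold change was -0.93 ± 0.62 (SE) in H4H18A, with an interval of -2.32 to 0.46 and an adjusted p of 0.999, and -0.21 ± 0.59 in H4K16Q. It was -1.07 in H4H18A without replicate 2. HST1 stood at 78.4 CPM in H3E50A and at 53.4 CPM in WT H3, for a log2 ratio of 0.55 (counting interval 0.20 to 0.92). The ratio of SIR2 to HST1 per length was 0.297 and 0.63 in H4K16Q and 0.149 and 0.615 in H4H18A, against 0.461 and 0.129 in WT H4, so that HST1 exceeded SIR2 in each of these libraries.

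HST2 was the steadiest gene of the set as well as the highest. It had 122 and 159 CPM in H4K16Q and 122 and 110 CPM in H4H18A, against 119 and 108 CPM in WT H4, and 164 CPM in H3E50A against 153 CPM in WT H3. Its highest and lowest libraries differed 1.52-fold, and the SD of its log2 CPM over the 8 libraries, 0.24, was smaller than that of all but 1.16% of genes. Both H4K16Q values lay above both WT H4 values, the nearer pair at 122 and 119 CPM with overlapping Poisson intervals. HST2 had a log2 fold change of 0.30 ± 0.594 (SE) in H4K16Q and of 0.03 ± 0.6 in H4H18A, and with total counts in place of TMM the H4K16Q values no longer lay above those of WT H4. Its promoter window held 2 stress response elements, which 1148 of 5897 promoters (19.5%) also hold at least once.

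HST3 and HST4 encode the deacetylases of lysine 56 of H3, which remove the mark that is placed on newly made histones in S phase. HST3 had 43.1 and 62 CPM in H4K16Q and 37.7 and 36.7 CPM in H4H18A, against 52.8 and 32.5 CPM in WT H4, and 36.5 CPM in H3E50A against 50.1 CPM in WT H3. The groups overlapped, with log2 fold changes of 0.28 ± 0.559 (SE) in H4K16Q and -0.21 ± 0.581 in H4H18A, which was -0.13 without H4H18A replicate 2. The log2 ratio in H3E50A was -0.45, with a counting interval of -0.86 to -0.05.

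HST4 had 11.9 and 13.7 CPM in H4K16Q and 11.8 and 11.5 CPM in H4H18A, against 30.6 and 7.8 CPM in WT H4, and 6.42 CPM in H3E50A against 9.12 CPM in WT H3. The 4 H4 mutant libraries lay within 11.5 to 13.7 CPM while the WT H4 replicates lay on either side of them. The log2 fold changes of -0.63 ± 0.783 (SE) in H4K16Q and -0.76 ± 0.857 in H4H18A became 0.70 and 0.58 without WT H4 replicate 1, and that in H4H18A was -0.68 without H4H18A replicate 2. In H3E50A the log2 ratio was -0.48, with a counting interval of -1.48 to 0.53.

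SAS2 encodes the acetyltransferase that places the acetyl group on lysine 16 of H4, the residue replaced in H4K16Q. SAS2 had 12.1 and 9.52 CPM in H4K16Q, against 20.7 and 13.6 CPM in WT H4, with both H4K16Q values below both WT H4 values. In H4H18A it had 4.71 CPM from 2 counts and 16.1 CPM from 14 counts, values that lay on either side of the lower WT H4 value. The log2 fold change was -0.69 ± 0.774 (SE) in H4K16Q, with an interval of -2.42 to 1.05 and an adjusted p of 0.997 from edgeR, and -0.65 ± 0.837 in H4H18A. Without WT H4 replicate 1 the value in H4K16Q was -0.34, while that in H4H18A was -0.11 without H4H18A replicate 1 and -1.81 without H4H18A replicate 2. SAS2 stood at 10.1 CPM in H3E50A and at 15.6 CPM in WT H3, for a log2 ratio of -0.61 (counting interval -1.38 to 0.15).

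Across the 8 libraries the levels of some members moved together. Pearson's r of log2 CPM over the 45 pairs had a median of 0.20, where the median over all pairs of the 5962 genes was 0, and these correlations describe libraries that share their depth and scaling. The highest was between SIR4 and HST1 (r = 0.85, Spearman's rho = 0.86), followed by SIR1 and SIR2 (r = 0.73, rho = 0.9), and the lowest between HST2 and DOT1 (r = -0.63, rho = -0.71). The genes most like SIR2 in this respect were CTL1, HEM4 and DFP1 (r = 0.941, 0.938 and 0.933, with rho = 0.88, 0.98 and 0.33). Those most like SIR3 were PDR3, RPN12 and SEN15 (r = 0.922, 0.906 and 0.899, with rho = 0.83, 0.81 and 0.86), and those most like SIR4 were YLR031W, YOR121C and BOR1 (r = 0.969, 0.966 and 0.944, with rho = 0.95, 0.97 and 0.98). DFP1, SEN15, YLR031W and YOR121C had 0 counts in at least 1 library.

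The partners of these proteins were taken as 8 lists with 56 genes, all of which were tested. In H4K16Q, 29 (51.8%) had a fitted level below that of WT H4, as did 55.6% of all genes, and 0 were called by edgeR. Both H4K16Q libraries lay below both WT H4 libraries for 13 (23.2%) and above them for 5 (8.93%), where the shares over all genes were 17.9% and 12.8%. In H4H18A, 29 (51.8%) were lower, as were 55.6% of all genes, and 0 were called. Both H4H18A libraries lay below for 11 (19.6%) and above for 7 (12.5%), where the shares over all genes were 15.8% and 10.3%. Without H4H18A replicate 2, an alternative added after the data were seen, 38 of the 56 were lower, and the remaining library lay below for 28 and above for 11. A single library lies to one side of WT H4 more readily than 2 libraries do. The share over all genes was not computed for this setting, so these counts cannot be set against the shares above. In H3E50A, 14 of the 56 were at least 2-fold lower and 4 at least 2-fold higher than in WT H3, where 23.2% and 22.1% of all genes were.

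Sas2 works in the SAS complex with Sas4 and Sas5. SAS5 had 45.9 and 30 CPM in H4K16Q and 28.2 and 41.3 CPM in H4H18A, against 20.9 and 13.6 CPM in WT H4, and 35.8 CPM in H3E50A against 12.4 CPM in WT H3. All mutant libraries of SAS5 thus lay above all WT libraries, as for 1.01% of all genes. Among the 56 partner genes, CSM1 lay above in the same way. RTT109, MMS22 and ORC1 lay below all WT libraries in every mutant library, as for 3.15% of all genes. SAS4 overlapped, with log2 fold changes of -0.37 in H4K16Q and 0.29 in H4H18A. For SAS5 they were 1.11 and 1.01, with adjusted p of 0.997 and 0.999 from edgeR, and the log2 ratio in H3E50A was 1.5. Of the genes that work with HST1, RFM1 had 10.9 and 6.69 CPM in H4K16Q and 4.71 and 16.1 CPM in H4H18A, against 44 and 16.9 CPM in WT H4, and 6.19 CPM in H3E50A against 13 CPM in WT H3. RFM1 had log2 fold changes of -1.81 in H4K16Q and -1.48 in H4H18A, or -2.64 without H4H18A replicate 2, while SUM1 had 0.05 in H4K16Q and 0.49 in H4H18A and a log2 ratio of -0.59 in H3E50A.

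The list of lysine 56 acetylation holds the writers of the mark that Hst3 and Hst4 remove. RTT109, the acetyltransferase for lysine 56 of H3, had 7.52 and 9.52 CPM in H4K16Q and 4.71 and 11.5 CPM in H4H18A, against 32.8 and 23.4 CPM in WT H4, and 1.83 CPM in H3E50A against 11.7 CPM in WT H3. Its log2 fold changes were -1.74 and -1.72 in H4K16Q and H4H18A, with adjusted p of 0.997 and 0.999 from edgeR, the second being -2.52 without H4H18A replicate 2, and its log2 ratio in H3E50A was -2.40. ASF1, the histone chaperone that presents H3 to Rtt109, had 9.62 and 34.8 CPM in H4K16Q and 42.4 and 250 CPM in H4H18A, against 72.9 and 131 CPM in WT H4, and 9.4 CPM in H3E50A against 126 CPM in WT H3. On the log2 scale ASF1 was at -2.21 in H4K16Q and 0.54 in H4H18A, and the ratio in H3E50A was -3.68. The value of ASF1 in H4H18A turned to -1.20 without H4H18A replicate 2. MMS22, an adaptor of the ubiquitin ligase that acts downstream of this mark, lay below WT H4 in both libraries of both H4 mutants, with log2 fold changes of -1.14 in H4K16Q and -1.31 in H4H18A, the second being -2.20 without H4H18A replicate 2.

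RLF2, the large subunit of chromatin assembly factor CAF-1, had 27.6 and 25.3 CPM in H4K16Q and 32.9 and 80.3 CPM in H4H18A, against 86.9 and 69.5 CPM in WT H4, and 12.8 CPM in H3E50A against 70.3 CPM in WT H3. NAT5, a subunit of the N-terminal acetyltransferase that modifies Sir3 and Orc1, had a log2 ratio of -2.28 in H3E50A, and its WT H4 replicates stood at 0.862 and 28.6 CPM. Of the 8 libraries, H3E50A held the lowest level of DOT1, RTT109, ASF1 and RLF2, a grouping made after their values were seen. ASF1 was nearly as low in H4K16Q replicate 1, at 9.62 CPM against 9.4 CPM in H3E50A. Outside this grouping, HST4 and the partner genes TOF2, FOB1, LRS4, ORC6 and URH1 also had their lowest level in H3E50A. The share of all genes with their lowest level there was not computed. Of all genes, 23.2% were at least 2-fold lower in H3E50A than in WT H3.

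**Figure D4:**
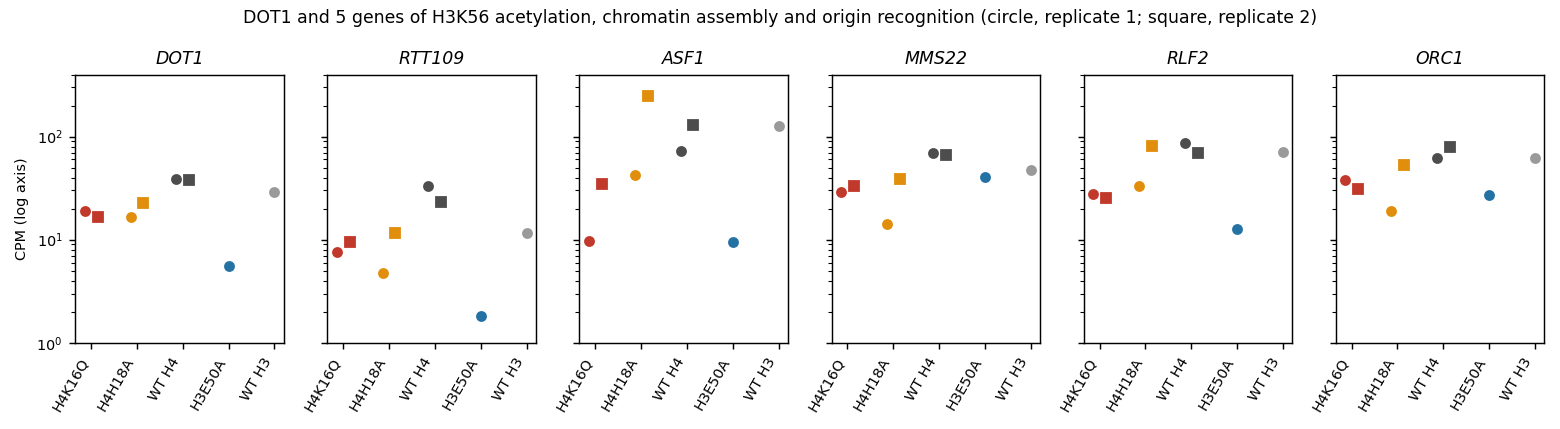
Levels in CPM on a log axis of DOT1 and of RTT109, ASF1, MMS22, RLF2 and ORC1, with 1 point per library (circles, replicate 1; squares, replicate 2). In H4K16Q both points of each gene lie below both WT H4 points, which for the partner genes follows from how they were picked. SAS5, CSM1 and BNA4, which met the naming rule on the upper side, are not shown. H3E50A stands at 1.83 CPM for RTT109 and 5.5 CPM for DOT1, and H4H18A replicate 2 stands at 250 CPM for ASF1.

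Of the 13 silencer and telomere binding factors, 9 had a log2 fold change below 0 in H4K16Q and 10 in H4H18A, with medians of -0.79 and -0.35. Of all genes, 55.6% lay below 0 in each comparison, with medians of -0.10 and -0.09. Both H4K16Q libraries lay below both WT H4 libraries for 6 of the 13, as for 17.9% of all genes. Both H4H18A libraries lay below them for 3 of the 13, as for 15.8% of all genes. ORC1, the origin recognition subunit that arose from the same ancestral gene as SIR3, had 38.1 and 30.9 CPM in H4K16Q and 18.8 and 52.8 CPM in H4H18A, against 62.5 and 79.3 CPM in WT H4, and 27.1 CPM in H3E50A against 62.5 CPM in WT H3. On the log2 scale ORC1 was at -1.05 in H4K16Q and -0.95 in H4H18A, or -1.84 without H4H18A replicate 2, with a log2 ratio of -1.19 in H3E50A, where its duplicate SIR3 stood at 0.46. ORC6 and YKU70, a subunit of the telomere end-binding complex, had log2 fold changes of -1.39 and -1.68 in H4K16Q, while RAP1, which recruits Sir4, had 0.49 in H4K16Q and 0.63 in H4H18A with overlapping groups. Adjusted p values of these genes were 0.997 or above with edgeR.

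NAD+, the cosubstrate of the sirtuins, is made and salvaged by the products of 16 genes in the list, of which 12 had a log2 fold change above 0 in H4K16Q and 11 in H4H18A. Of all genes, 55.6% lay below 0 in each comparison. Both libraries lay above both WT H4 libraries for 2 of the 16 in either mutant, as for 12.8% of all genes in H4K16Q and 10.3% in H4H18A. BNA4, an enzyme of de novo synthesis, had 47.8 and 58.4 CPM in H4K16Q, against 14.4 and 39 CPM in WT H4. PNC1, the nicotinamidase that clears the inhibitor of Sir2, had 612 and 1090 CPM in H4K16Q and 1080 and 427 CPM in H4H18A, against 797 and 283 CPM in WT H4. PNC1 stood at 1110 CPM in H3E50A and at 315 CPM in WT H3, for a log2 ratio of 1.82, and NPT1, the next enzyme of the salvage pathway, had a ratio of -0.86. BNA7 and NRK1 had log2 fold changes of -1.89 and -1.29 in H4H18A, where replicate 1 had 0 counts for both and replicate 2 had 4 and 8.

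Of the 6 genes of ribosomal DNA silencing, CSM1, a subunit of cohibin, had 14.7 and 24.2 CPM in H4K16Q and 28.2 and 16.1 CPM in H4H18A, against 3.45 and 11.7 CPM in WT H4. CSM1 lay above WT H4 in both mutants, and 3 of the 6 genes were at least 2-fold lower in H3E50A, as were 23.2% of all genes. Of the 5 genes that set or remove the ubiquitin of H2B, on which Dot1 depends, UBP8 had log2 fold changes of -1.45 in H4K16Q and -0.96 in H4H18A, with both libraries of each mutant below WT H4, and the second was -1.50 without H4H18A replicate 2. BRE1 and RAD6, the ligase and the conjugating enzyme, had 0.32 and -0.45 in H4K16Q and -0.22 and 0.21 in H4H18A, and log2 ratios of 0.53 and -0.26 in H3E50A, RAD6 being at -0.03 in H4H18A without H4H18A replicate 2.

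At the silent mating loci themselves, the genes of HML had 0 counts in all libraries except for 1 count of HMLALPHA2 in H4H18A replicate 2. MATALPHA2, which shares its sequence, had 13 and 1 counts in H4K16Q and 1 and 0 in H4H18A, against 2 and 0 in WT H4, and 6 in H3E50A against 0 in WT H3. HMRA2 had 2 and 2 counts in H4K16Q and 0 and 1 in H4H18A, against 0 in every other library. The **a**1 gene, which the files assign to HMR and which a *MATa* strain also carries at the mating-type locus, had 304 and 59 counts in H4K16Q and 4 and 0 in H4H18A, against 129 and 12 in WT H4, and 184 in H3E50A against 8 in WT H3. Since HML, HMR and the mating-type locus share sequence, counts on them are uncertain.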

How the data were processed

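RNA-seq of 8 libraries was used. Per the labels and the methods of the study, libraries were made with a TruSeq stranded total RNA kit. The authors trimmed reads with Trim Galore, mapped them to R64 with STAR and counted them with featureCounts, whose versions and strand setting are not given in the sources used here. The deposited tables hold raw counts for 6600 features without normalization. The authors' deposited edgeR tables of log2 fold changes and p-values were not used.

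The H4-side libraries, 6 in all, were filtered with filterByExpr (minimum count 10, minimum total 15), which left 5669 genes, scaled by TMM and fitted with edgeR 4.0.16 in R 4.3.3 as 1 group per strain, with the quasi-likelihood test and Benjamini-Hochberg adjustment over all genes tested (threshold 0.05). H3E50A and WT H3, with 1 library each, were compared by the log2 ratio of CPM, after adding a prior count of 2, and a 95% exact binomial interval of the counts. Alternatives were DESeq2 1.42.0, edgeR's likelihood-ratio test, other scalings and filters, other sets of libraries, a replicate block and leaving out each library.

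The genes and lists were chosen with earlier results of these data known. Named partners are direct partners of the 10 proteins and list genes with both libraries of an H4 mutant on one side of WT H4 and a log2 fold change of at least 1 either way, or with a log2 ratio of at least 2 either way in H3E50A at 10 CPM or more. Of the features, 5917 (89.7%) matched RefSeq (R64), from which positions and sequences were taken. MET15 is listed there as MET17. Motifs were chosen after the values were seen.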

Additional observations from a re-analysis of the deposited data

Results flagged for a closer look

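For 3 of the 10 genes every library of one mutant lay on one side of its WT control while another mutant lay on the opposite side. The share of all genes with this pattern was not computed, so the count cannot be read as particular to the members. These were SIR3, SIR4 and HST1, for which both H4H18A libraries lay below both WT H4 libraries and H3E50A lay above WT H3 beyond counting error. The log2 ratio of H3E50A minus that of H4H18A was 0.89 for SIR3, 1.59 for SIR4 and 1.48 for HST1. WT H3 itself lay below both WT H4 libraries for these genes, and against the mean of the 3 WT libraries the log2 ratio of H3E50A was 0.20 for SIR3, 0.54 for SIR4 and 0.41 for HST1. The difference was not tested, since H3E50A and WT H3 had 1 library each. For SIR4 the levels were 111 CPM in H3E50A against 63.2 CPM in WT H3, and 47.1 and 50.5 CPM in H4H18A against 90.3 and 77.3 CPM in WT H4. The H4H18A libraries were the shallowest, with 138 and 310 counts on the 10 genes, and the part of depth in these differences was not tested.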

How the results depend on the processing

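No member passed the threshold under any alternative. The number of genes called, 0 for each H4 comparison, was 14 for H4K16Q against WT H4 with DESeq2 and 5 with edgeR's likelihood-ratio test, and for H4K16Q against H4H18A it was 6 and 5. Leaving out 1 library at a time gave 0 to 58 calls for H4K16Q and 0 to 13 for H4H18A against WT H4, the upper values without WT H4 replicate 2. With total counts only, 0 members were lower in H4K16Q than in H4H18A, against 2 with TMM, and HST2 stood at -0.45 in H4H18A against WT H4 (-0.13 with WT H3 added to the controls), SAS2 at 0.21 and DOT1 at 0.11 in H4K16Q against H4H18A. Members lower in H4H18A than in WT H4 numbered 5 to 10 when 1 library was left out, and those lower in H4K16Q than in H4H18A 0 to 4.

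The following log2 fold changes changed sign when single libraries were left out, with these lowest and highest values. In H4K16Q against WT H4 they were SIR1 (-1.62 to 0.34), SIR2 (-0.14 to 1.3), SIR3 (-0.35 to 0.14), HST1 (-0.71 to 0.24), HST3 (-0.002 to 0.70) and HST4 (-1.11 to 0.70). In H4H18A against WT H4 they were SIR1 (-1.78 to 0.31), SIR2 (-2.02 to 0.73), HST2 (-0.047 to 0.17), HST3 (-0.48 to 0.21) and HST4 (-1.38 to 0.58). Between the mutants they were SIR1 (-0.30 to 0.75), SIR2 (-0.062 to 2.45), SAS2 (-0.57 to 1.29) and DOT1 (-0.36 to 0.20). Without H4H18A replicate 2, ASF1 was at -1.20 and RAD6 at -0.03 in H4H18A against WT H4. The cause was not tested.

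Replicate numbers name preparations that the methods of the study call independent, and the main fit did not pair the libraries by them. The deviations of the replicates correlated at -0.0106 between H4K16Q and H4H18A and at 0.134 between H4K16Q and WT H4. Between H4H18A and WT H4 they correlated at 0.438, and the source of this was not tested. With the replicate number as a block, 0 genes were called in each comparison, and SIR1 in H4K16Q against H4H18A was -0.064. Depth limits SIR2 and SAS2 most, with 2 counts each in H4H18A replicate 1.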
